A study of Rattus norvegicus with 6 samples.

Results

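The HoxC cluster is a run of homeobox genes on rat chromosome 7, and its genes were followed here in the order of their positions, from Hoxc13 to Hoxc4. They were picked by symbol, with earlier results of these data known. Of the 9 HoxC symbols 7 had a row in the deposited expression table, 1 row each, among 20258 named rows in all. Hoxc6 and Hoxc11 were not analysed here. The retinoic acid group consisted of 3 pools of neuroepithelial progenitor cells from rat embryos at stage E10.5 whose mothers had been gavaged with all-trans retinoic acid in olive oil at a dose of 60 mg/kg. The control group consisted of 3 such pools from embryos of oil-fed mothers. The RNA came from sorted cell suspensions and was read on an array, with ERCC ExFold mix 2 added to the retinoic acid pools and mix 1 to the controls. The labels give neither rat strain, sorting gate, time from dosing to collection nor number of embryos per pool, and each p-value therefore covers only the spread from pool to pool. The sample data used here name no mother for any pool. Whether pools shared mothers, the animals that were dosed, was therefore not known here.

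Hox genes encode homeodomain transcription factors that give cells of the neural tube and the trunk mesoderm their position along the head-to-tail axis. The genes lie in a conserved order, so that those at the 3′ end of a cluster, such as Hoxc4, are switched on earlier and farther forward, and those at the 5′ end, such as Hoxc13, later and closer to the tail. Retinoic acid is a known activator of the 3′ Hox genes, through retinoid receptors bound near them. All 7 rows lay on the plus strand within 114.473 kb, so the row order runs from the 5′ end, Hoxc13, to the 3′ end, Hoxc4.

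Of the 7 genes, 2 fell with retinoic acid, Hoxc10 and Hoxc5, and none rose. A gene was said to have fallen or risen when limma, fitted over all 20258 rows, gave a Benjamini-Hochberg adjusted p under 0.05. In that fit 9.75% of all rows were called, 2.06% lower (417 rows) and 7.69% higher (1558 rows), a share of 78.9% higher among the calls. With quantile normalization the split was 785 lower and 823 higher (51.2% higher), and after cyclic loess 767 lower and 859 higher (52.8% higher). The 2 lower genes make up 28.6% of the 7. Their groups were also separate, as they were in 26% of all rows, 6.95% with the retinoic acid pools below and 19% with them above. The median log2 difference of the 7, retinoic acid minus control, was -0.06, against 0.03 over all rows. Of the 7 differences 6 lay below 0, against 7619 of 20258 over all rows. These counts describe the cluster, and no test was made over its genes together.

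The medians of the 6 samples ranged from 6.73 to 6.79 log2 units, and no sample stood apart by its correlation with the others of its group (0.9965 to 0.9974). Rows of olfactory receptor genes, which should be silent in these cells, served as an estimate of array background. Their median level was 5.47 and their 95th percentile 6.17 log2 units. Of the 12 measured neural progenitor markers 11 lay above that percentile and Dbx1 did not. Markers of other cell types were also above it, 18 of 19 for trunk mesoderm and mesenchyme and 10 of 10 for endothelium and blood, against 65.5% of all tested rows. Whether this RNA came from other cells in the pools was not tested. A lower value can come from fewer cells of a type or from less RNA per cell, and these cannot be told apart in pooled RNA.

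**Figure D1:**
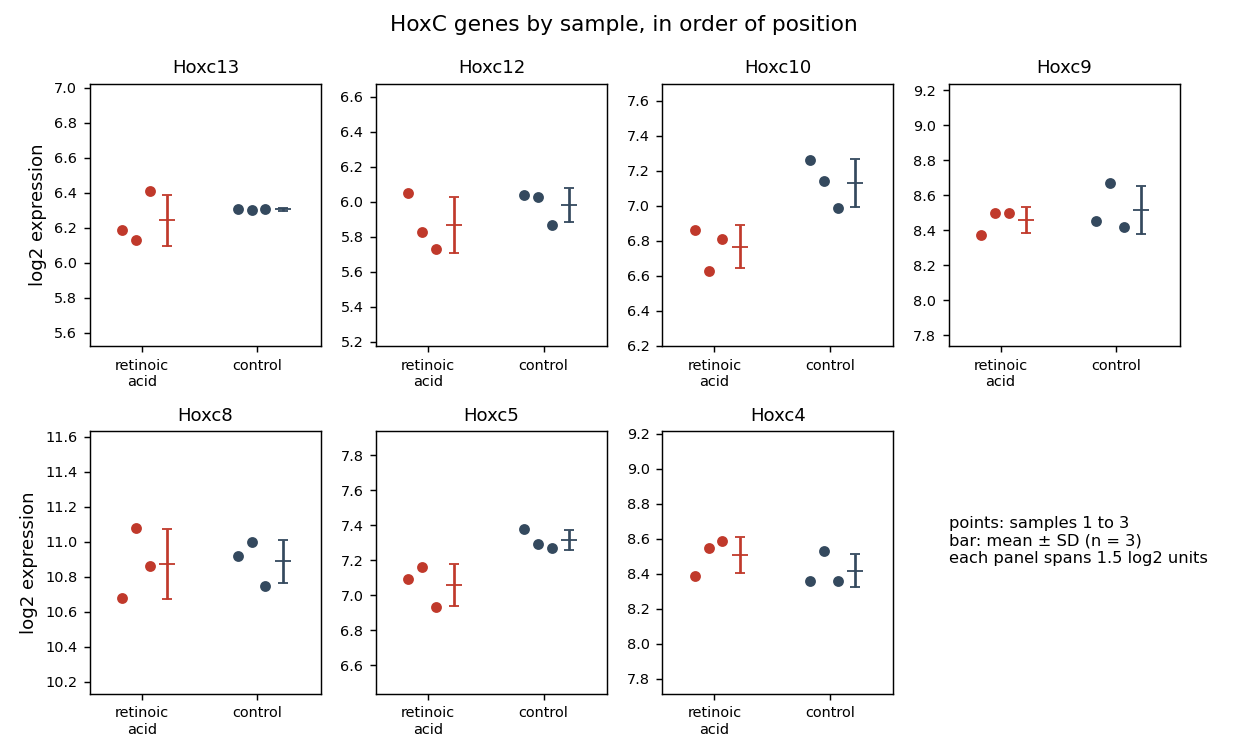
Log2 expression of each HoxC gene in the 3 retinoic acid pools (left in each panel) and the 3 control pools (right), with the mean ± SD beside the points (n = 3). The groups are separate for Hoxc10 and Hoxc5 and overlap for the other 5 genes.

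At the 5′ end stood Hoxc13, a gene known for its role in hair and nails in the mouse (chromosome 7, 141685004 to 141691159, as the authors' file numbers it, with no build named). It read 6.19, 6.13 and 6.41 log2 units in the retinoic acid pools, against 6.31, 6.30 and 6.31 in the control pools. Its neighbour Hoxc12 (141700558 to 141702156) read 6.05, 5.83 and 5.73 in the retinoic acid pools, against 6.04, 6.03 and 5.87 in the control pools. The groups overlapped for both genes. The differences were -0.06 ± 0.076 (SE, adjusted p = 0.72) for Hoxc13 and -0.11 ± 0.083 (SE, adjusted p = 0.49) for Hoxc12. Hoxc12 lay below the 95th percentile of the olfactory receptor rows and Hoxc13 just above it, so a change in either would be hard to read at this level.

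Hoxc10 acts at lumbar levels, where in the mouse it helps to set hindlimb motor neuron identity. It read 6.86, 6.63 and 6.81 in the retinoic acid pools, against 7.26, 7.14 and 6.99 in the control pools. Every retinoic acid pool lay below every control pool. The mean was 6.77 ± 0.12 (SD, n = 3) with retinoic acid and 7.13 ± 0.14 (SD, n = 3) in controls, a 1.29-fold fall, with a log2 difference of -0.36 ± 0.082 (SE, 95% interval -0.54 to -0.19, adjusted p = 0.0084). Of all rows 0.666% had a lower difference. The call held without each of the 6 samples in turn (adjusted p between 0.00596 and 0.0487), was lost when each sample was shifted by the mean of its ERCC spike-ins, which left no HoxC call, and stood at an adjusted p of 0.0185 in the authors' deposited table. The Hoxc10 row covers 141717910 to 141734613, a span of 16.7 kb, whereas the other 6 rows span at most 6.16 kb. RefSeq (assembly GRCr8, used for the order of genes only) places Hoxc11 between Hoxc12 and Hoxc10, and whether probes of this row also read Hoxc11 transcripts was not tested.

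In the middle of the cluster lie Hoxc9, which sets thoracic motor neuron identity, and Hoxc8, a gene of the brachial and thoracic cord and ribs. Hoxc9 (141745173 to 141747850) read 8.37, 8.50 and 8.50 in the retinoic acid pools, against 8.45, 8.67 and 8.42 in the control pools. Hoxc8 (141754283 to 141756849) read 10.68, 11.08 and 10.86 in the retinoic acid pools, against 10.92, 11.00 and 10.75 in the control pools. The groups overlapped for both, with the lowest and the highest Hoxc8 value found in the same group, retinoic acid. The log2 difference of Hoxc9 was -0.06 (95% interval -0.22 to 0.10, adjusted p = 0.74) and that of Hoxc8 -0.01 (95% interval -0.21 to 0.18, adjusted p = 0.96). The value of Hoxc8 depended on the scaling and on the samples kept. It was -0.21 after quantile normalization and after cyclic loess (adjusted p = 0.0888 and 0.0878), and -0.02 after median centring. It was above 0 after the spike-in shift (0.022), without control 2 (0.04) or without retinoic acid 1 (0.082). Hoxc8 was not called in any of these. Hoxc9 also lay above 0 without control 2 (0.019).

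Toward the 3′ end lie Hoxc5, which with its paralog Hoxa5 maintains phrenic motor neurons in the mouse, and Hoxc4, a gene of neck levels. Hoxc5 (141777331 to 141780753) read 7.09, 7.16 and 6.93 in the retinoic acid pools, against 7.38, 7.29 and 7.27 in the control pools. Every retinoic acid pool again lay below every control pool. The mean was 7.06 ± 0.12 (SD, n = 3) with retinoic acid and 7.31 ± 0.057 (SD, n = 3) in controls, a 1.19-fold fall, with a log2 difference of -0.25 ± 0.074 (SE, 95% interval -0.41 to -0.10, adjusted p = 0.038). This call was near the threshold. It was lost without control 1 (adjusted p = 0.154), control 2 (0.0861), control 3 (0.0634), retinoic acid 1 (0.0706) or retinoic acid 3 (0.180), after median centring (0.0566), when unnamed rows were tested too (0.0583), and in the authors' deposited table (adjusted p = 0.0612). The difference stayed between -0.31 and -0.19 under all 17 alternative settings.

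Hoxc4 (141796934 to 141799476), the HoxC gene closest to the 3′ end, read 8.39, 8.55 and 8.59 in the retinoic acid pools, against 8.36, 8.53 and 8.36 in the control pools. The groups overlapped. Hoxc4 was the single gene of the 7 with a difference above 0, at 0.09 ± 0.075 (SE, 95% interval -0.07 to 0.25, adjusted p = 0.55), and it was not called. It lay between 0.03 and 0.15 under the 17 alternatives.

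**Figure D2:**
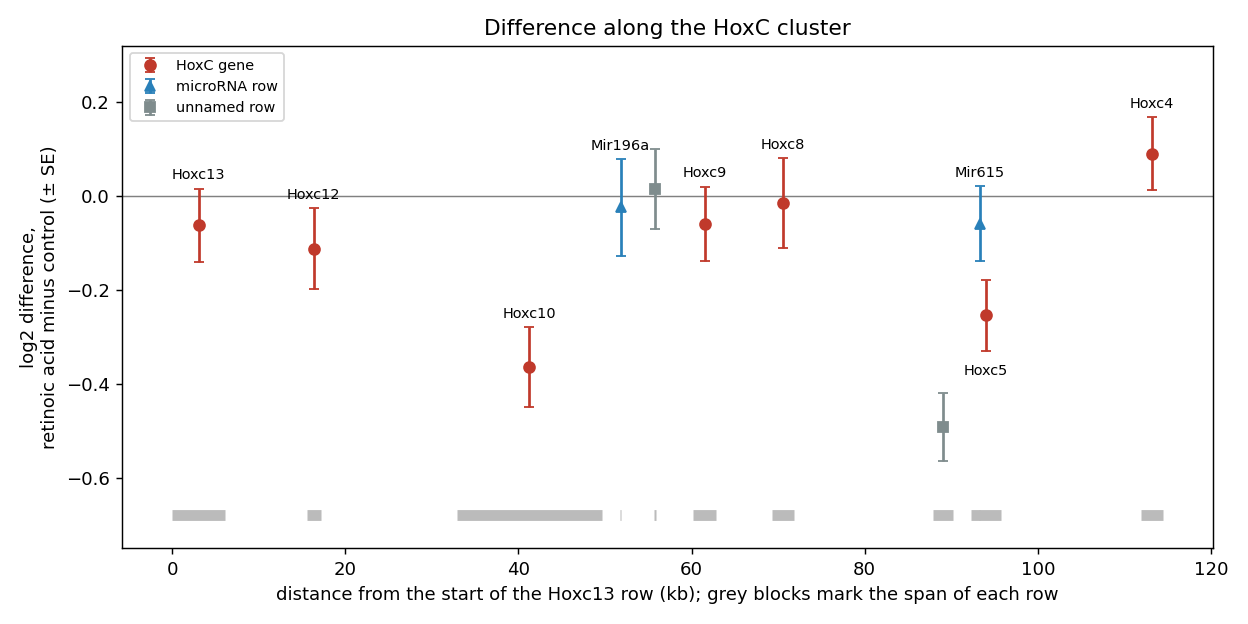
Log2 difference (retinoic acid minus control, ± SE, fit over all rows of the array that are not controls) of the 11 rows in the HoxC interval against distance from the start of the Hoxc13 row in kb, with HoxC genes, microRNA rows and unnamed rows marked apart. The rows at or below -0.25 are Hoxc10, an unnamed row at -0.49 and its neighbour Hoxc5, with rows near 0 between and beyond them.

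Along the cluster the differences did not form a steady slope. From Hoxc13 to Hoxc4 they ran -0.06, -0.11, -0.36, -0.06, -0.01, -0.25 and 0.09. Over the 7 genes the difference and the start position had a Pearson coefficient of 0.29 and a Spearman coefficient of 0.43, given as a description, since the genes were read on the same 6 arrays. To ask whether neighbours moved unequally, the log2 ratio of each gene to the next was compared between the groups with a two-sided exact permutation test, in 6 pairs. With 3 pools in each group the smallest p this test allows is 0.10. That value was reached for Hoxc12 with Hoxc10 (difference of the log2 differences 0.25) and for Hoxc5 with Hoxc4 (-0.34), the pairs in which the groups were separate. After Benjamini-Hochberg adjustment over the 6 pairs both stood at 0.30. No pair could pass 0.05 with groups of this size, so the test shows neither a difference between neighbours nor its absence. For Hoxc10 with Hoxc9 the value was -0.30 (exact p = 0.20), and for Hoxc8 with Hoxc5 0.24 (exact p = 0.20).

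Between the start of Hoxc13 and the end of Hoxc4 the table holds 4 further rows. The largest difference of the interval was in one of them, an unnamed plus-strand row between Hoxc8 and Hoxc5 (141772884 to 141775242, 2.36 kb long, 2.09 kb from the start of the Hoxc5 row). It read 9.25, 9.36 and 9.23 in the retinoic acid pools, against 9.85, 9.78 and 9.68 in the control pools. Every retinoic acid pool lay below every control pool, by more than the spread within either group. The mean was 9.28 ± 0.071 (SD, n = 3) with retinoic acid and 9.77 ± 0.086 (SD, n = 3) in controls, a 1.41-fold fall. Because the row carries no name it was tested in a fit over all 29489 rows that are not array controls, of which 7.9% were called, 2.8% lower and 5.1% higher (log2 difference -0.49 ± 0.073 SE, adjusted p = 0.00063). The call held without each sample in turn and was lost after the spike-in shift (adjusted p = 0.705). RefSeq places Hoxc6 between Hoxc8 and Hoxc5, but the file gives this row no gene, and no gene is assigned to it here.

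MicroRNA genes also lie among the Hox genes. The miR-196 family has a gene in the HoxA, the HoxB and the HoxC cluster, and its members are known in the mouse to act on Hox messages, among them those of Hoxb8 and Hoxc8. The Mir196a row lies between Hoxc10 and Hoxc9 (141736759 to 141736868) and the Mir615 row within the span of Hoxc5 (141778230 to 141778321). The mature sequences, from RefSeq (GRCr8), are shown because the family shares its seed across the clusters. They are written 5′ to 3′ with the seed, bases 2 to 8, in capitals.
rno-miR-196a-5p, HoxC cluster: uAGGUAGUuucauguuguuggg
rno-miR-196b-5p, HoxA cluster: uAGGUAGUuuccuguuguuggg
rno-miR-196c-5p, HoxB cluster: uAGGUAGUuucguguuguuggg
rno-miR-615, within Hoxc5: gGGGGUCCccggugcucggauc
The miR-196 sequences share 1 seed and differ pairwise at 1 base, counted from the 5′ end: A12C from miR-196a to miR-196b and A12G from miR-196a to miR-196c. The seed of miR-615 is another one.

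**Figure D3:**
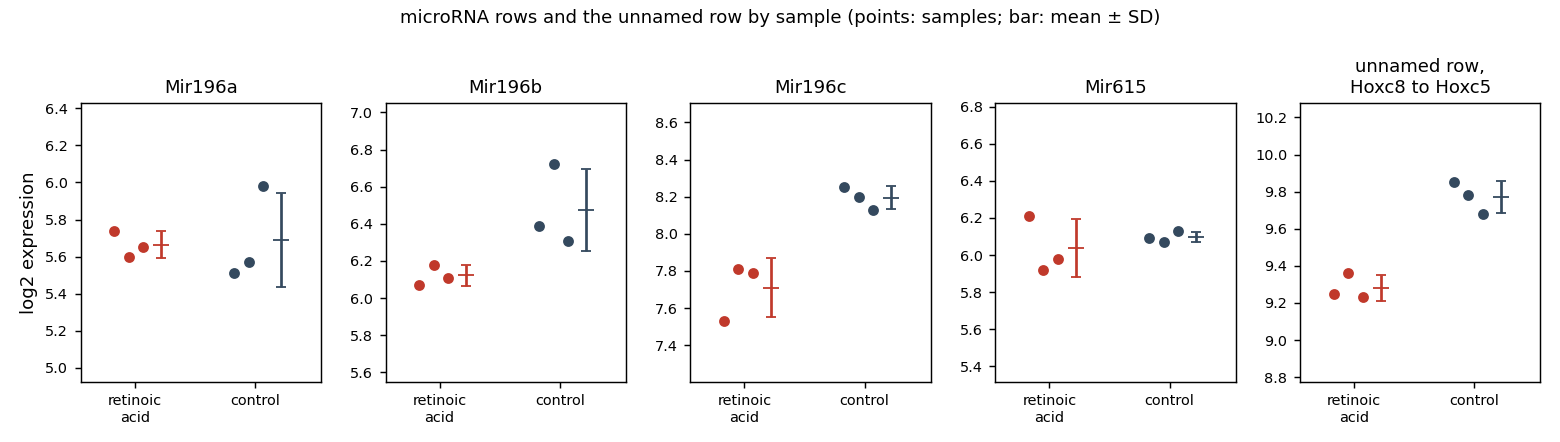
Log2 expression by sample of the Mir196a, Mir196b, Mir196c and Mir615 rows and of the unnamed row between Hoxc8 and Hoxc5, retinoic acid pools left and control pools right (bar: mean ± SD, n = 3). The groups are separate for Mir196b, Mir196c and the unnamed row and overlap for Mir196a and Mir615.

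The Mir196a row of the HoxC cluster read 5.74, 5.60 and 5.65 in the retinoic acid pools, against 5.51, 5.57 and 5.98 in the control pools. The groups overlapped, with control 3 the highest sample, and the difference was -0.02 (adjusted p = 0.93). Without control 3 it was 0.12, still with no call (adjusted p = 0.43). The Mir196c row of the HoxB cluster (chromosome 10, 84995948 to 84996027) read 7.53, 7.81 and 7.79 in the retinoic acid pools, against 8.25, 8.20 and 8.13 in the control pools. It fell 1.40-fold (log2 difference -0.48 ± 0.080 SE, adjusted p = 0.00082), and the Mir196b row of the HoxA cluster fell 1.28-fold (-0.35 ± 0.090 SE, adjusted p = 0.018). The call of Mir196b was lost without control 2 (adjusted p = 0.101), without retinoic acid 1 (0.0681) and after quantile normalization (0.0508). Mir615, inside Hoxc5, read 6.21, 5.92 and 5.98 in the retinoic acid pools, against 6.09, 6.07 and 6.13 in the control pools. Its difference was -0.06 (adjusted p = 0.75), while Hoxc5 around it fell. These rows span at most 0.11 kb, and whether they read the mature microRNA, its precursor or a longer host transcript was not tested. Mir196a and Mir615 had mean levels below the 95th percentile of the olfactory receptor rows in both groups, and Mir196b with retinoic acid, so these values are near background. Whether the rows of the family changed unequally was not tested.

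The paralogs of the 2 genes that fell were set beside them, since a paralog group occupies the same place in each cluster. In group 10, Hoxd10 read 8.61, 8.81 and 8.61 in the retinoic acid pools, against 9.37, 9.32 and 9.14 in the control pools. Hoxd10, like Hoxc10 a gene of lumbar motor neurons, fell by 0.60 on the log2 scale (SE 0.080, adjusted p = 0.000131). Hoxa10 was at -0.11 (adjusted p = 0.44) and was not called. In group 5, Hoxa5 was at -0.22 ± 0.071 (SE, adjusted p = 0.0575) beside Hoxc5 at -0.25, and Hoxb5 was at -0.06 (adjusted p = 0.68). Hoxa5 was called lower after quantile normalization (-0.39, adjusted p = 0.00242) and after cyclic loess (-0.39, adjusted p = 0.00238). In group 9, Hoxb9 rose (0.38 ± 0.074 SE, adjusted p = 0.0030), and Hoxc9 was at -0.06 and Hoxa9 at 0.09. In group 13, Hoxd13 fell (-0.25 ± 0.070 SE), and Hoxa13 (-0.21, adjusted p = 0.0937), Hoxb13 (-0.01) and Hoxc13 (-0.06) were not called. Hoxa13 was called lower under 4 of 17 alternatives, quantile normalization among them (adjusted p = 0.0432), and leaving out retinoic acid 2 gave 0.033. The call of Hoxd13 was lost without control 1 (adjusted p = 0.101), control 2 (0.116), retinoic acid 2 (0.0700) or retinoic acid 3 (0.0900).

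**Figure D4:**
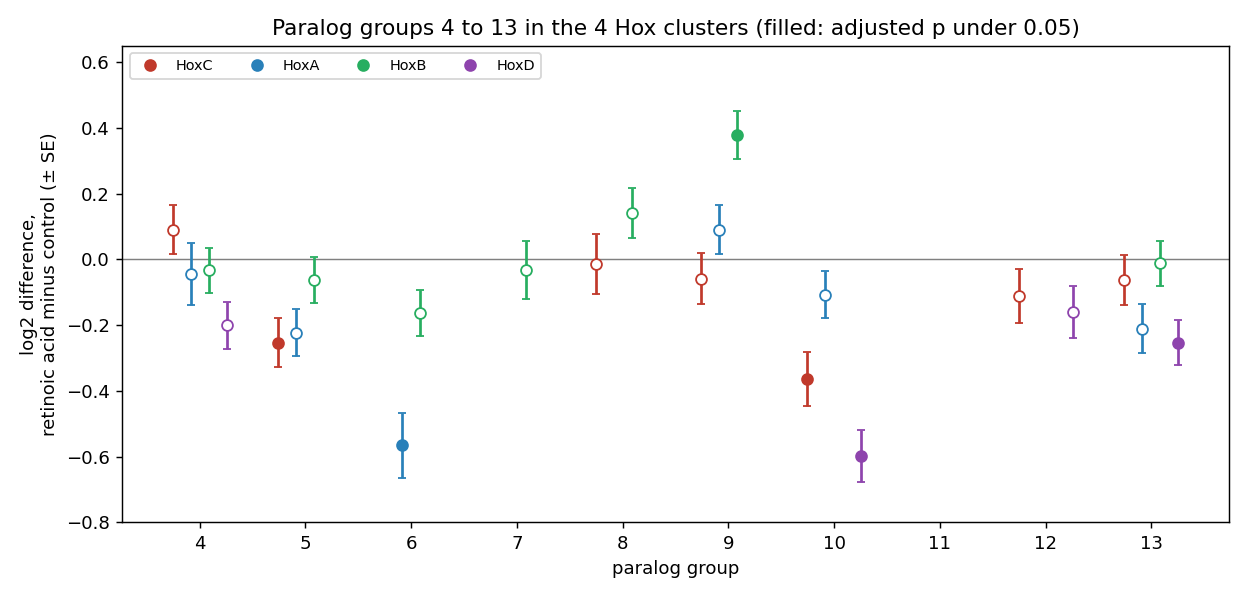
Log2 difference (retinoic acid minus control, ± SE) of the measured Hox genes of paralog groups 4 to 13, coloured by cluster, with filled points at an adjusted p under 0.05. HoxC genes are the red points; group 10 holds Hoxc10 and the lower Hoxd10, and group 9 holds Hoxb9 above 0 and Hoxc9 just below it.

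Over groups 4 to 13, 2 of 7 HoxC genes fell and none rose, against 3 of 17 genes that fell and 1 that rose in the other clusters together. The 3 were Hoxa6 (-0.57), Hoxd10 and Hoxd13. The 17 are the measured genes only. Hoxa7, Hoxa11, Hoxd8, Hoxd9 and Hoxd11 were not among them, which left 4 HoxD genes. Over all rows 2.06% were called lower and 7.69% higher. The median difference was -0.06 for HoxC and -0.11 for the 17. Of the differences 6 of 7 and 14 of 17 lay below 0, against 7619 of 20258 over all rows. These shares do not set HoxC apart from the other clusters, and the difference between clusters was not tested. The HoxC cluster has no gene of groups 1 to 3. In those groups Hoxb1 (0.52 ± 0.069 SE), an early target of retinoic acid in the hindbrain, rose, while Hoxa2, Hoxb3, Hoxd1 and Hoxd3 lay between -0.08 and 0.07.

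Genes that act upstream of the Hox clusters or beside their proteins were counted from lists of regulators, cofactors and chromatin factors. Of 19 regulators 6 rose and 1 fell, against 7.69% of all rows called higher and 2.06% lower. The fall was that of T (brachyury), a factor of the primitive streak and tail bud, at 8.45 ± 0.11 (SD, n = 3) with retinoic acid and 9.22 ± 0.033 (SD, n = 3) in controls. Among the rises, Nr6a1, an orphan nuclear receptor that in the mouse times the trunk Hox program, was higher by 0.82 ± 0.080 (SE). Aldh1a2, which makes retinoic acid, rose by 0.54, Cyp26a1, which clears it, by 0.44, and Egr2, a regulator of hindbrain Hox genes, by 0.75. Of the caudal-type genes, which activate trunk Hox genes, Cdx1 rose (0.31 ± 0.073 SE), whereas Cdx2 (-0.02) and Cdx4 (0.17) were not called. The Cdx genes are named here after their values were seen, and Cdx1 missed the threshold when control 2 (adjusted p = 0.0572) or retinoic acid 3 (0.0657) was left out.

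Of 8 measured Hox cofactors, which bind DNA together with Hox proteins, Pbx2 (0.58 ± 0.086 SE) and Meis3 (0.30 ± 0.068 SE) rose and none fell. Over all rows 7.69% were called higher and 2.06% lower. Of 14 chromatin regulators 3 rose and none fell, with Eed, a core subunit of the Polycomb complex that silences Hox genes, at 0.35 ± 0.077 (SE, adjusted p = 0.0072). The others were Ezh2, the methyltransferase of the same complex, at 0.29 and Pcgf2, a subunit of another Polycomb complex, at 0.25. Ezh2 was at 0.12 and not called after quantile normalization or cyclic loess (adjusted p = 0.243 and 0.256), and its call was lost without control 3 (0.0508) or retinoic acid 2 (0.0569). The call of Pcgf2 was lost without any single sample other than retinoic acid 1 (adjusted p up to 0.133) and after quantile normalization, cyclic loess or median centring (0.0797, 0.0794 and 0.0712), in all under 11 of 17 alternatives. Of the 3 genes only Eed was still called after quantile normalization and cyclic loess.

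Markers of other cells moved in the same samples. The shares over all rows, for comparison, were 7.69% called higher and 2.06% lower, a split that depended on normalization as given above. Of 19 trunk mesoderm and mesenchyme markers, cells that also express Hox genes, 8 fell, with T and Col1a1 (-0.71) among them, and 4 rose, led by the somite gene Meox1 (0.93). Their mean level was 7.77 to 7.81 log2 units in the retinoic acid pools, against 7.88 to 7.92 in the control pools. Of 8 limb and lateral plate markers Tbx5 (-0.49) and Isl1 (-0.40) fell and none rose. Of 10 endothelial and blood markers 5 fell, all endothelial, with the smallest p for Cdh5 (-0.78), Cd34 (-0.67) and Emcn (-0.58). The 2 that rose, named after their values were seen, were the blood genes Hbe1 (0.38, adjusted p = 0.0033) and Hbb (0.33, adjusted p = 0.026). The control mean of Hbb, 6.12, lay below the 95th percentile of the olfactory receptor rows. The other measured blood genes of the list, Hba-a2 (0.10, adjusted p = 0.44) and Gata1 (-0.03, adjusted p = 0.88), were not called. Hbe1 was at 0.084 after quantile normalization and -0.0028 after cyclic loess, with no call, and the call of Hbb was lost without control 1 (0.21, adjusted p = 0.16), control 3 (0.0545), retinoic acid 2 (0.0591) or retinoic acid 3 (0.0799). The whole list had a mean level of 8.48 to 8.57 in the retinoic acid pools, against 8.73 to 8.86 in the control pools. Of 12 neural progenitor markers 6 rose, led by Sox2 (0.83), Pax6 (0.42) and Nkx6-1 (0.42), and none fell, with a mean level of 7.81 to 7.85 in the retinoic acid pools, against 7.55 to 7.60 in the control pools. Of 9 surface ectoderm and gut markers 3 rose, Grhl3 (0.48), Tfap2a (0.40) and Krt8 (0.33), and none fell. Krt8 lost its call under 9 of 17 alternatives, among them quantile normalization (adjusted p = 0.0976), cyclic loess (0.0911) and leaving out control 2 (0.219), retinoic acid 1 (0.0679) or retinoic acid 2 (0.159). The part of these shifts in the HoxC differences was not tested.

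Outside the cluster the 3 nearest named rows on each side were LOC100365860 (0.14), Calcoco1 (-0.03), Tbca (0.13), Smug1 (-0.11), Cbx5 (0.17) and Hnrnpa1 (0.31). Tbca, the nearest, ends 10.4 kb before Hoxc13 and was at 0.13 ± 0.077 (SE, adjusted p = 0.35). Of these rows 1 was called, against 9.75% of all rows. This was Hnrnpa1, an RNA-binding protein gene 350.7 kb beyond Hoxc4. It read 9.75, 9.81 and 9.80 in the retinoic acid pools, against 9.42, 9.56 and 9.46 in the control pools, and rose by 0.31 ± 0.068 (SE, adjusted p = 0.0076). After quantile normalization and cyclic loess it was at 0.19 and not called (adjusted p = 0.0739 and 0.0712).

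**Figure D5:**
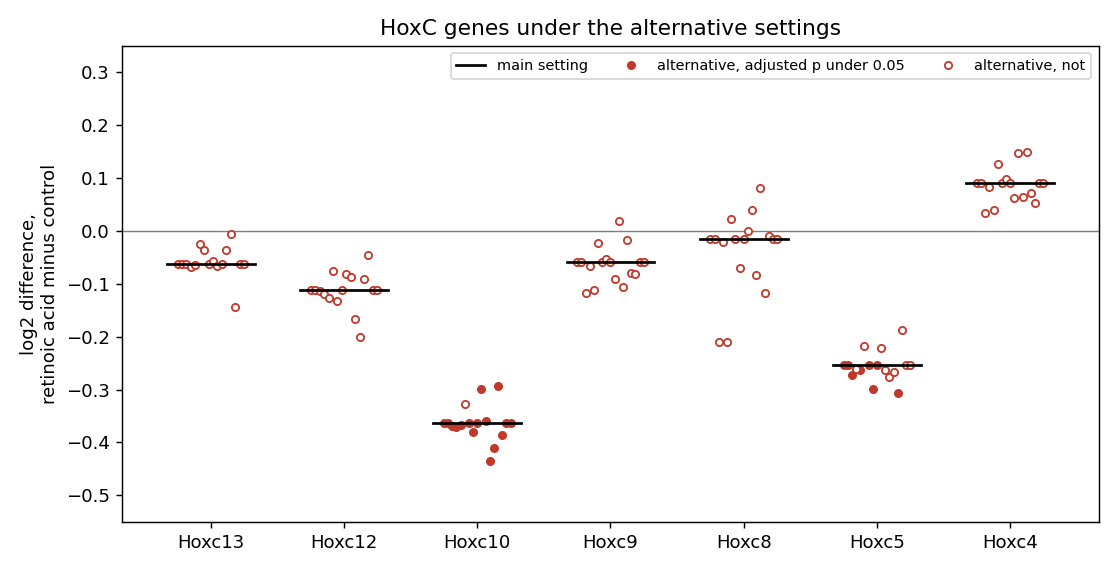
Log2 difference (retinoic acid minus control) of each HoxC gene in the main setting (black line) and under up to 17 alternative settings (points, filled at an adjusted p under 0.05). Hoxc10 lies between -0.43 and -0.29 and Hoxc5 between -0.31 and -0.19, while Hoxc8 ranges from -0.21 to 0.08.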

How the data were processed

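The authors deposited log2 expression values of 29656 array rows in 6 samples, with a second table of identical values. The sources used here give no array design, normalization method or genome build; limma appears, unversioned, in the submitters' processing notes. Per the file headers, t and B scores, p-values and log2 fold changes were the authors' own statistics. Columns WT1 to WT3 were taken as the controls, matched on number. Array control rows (167) and rows without gene name (9231) were left out of the main test.

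The 20258 remaining rows were fitted with limma 3.58.1 in R 4.3.3 (lmFit, eBayes; retinoic acid minus control; two-sided tests, unblocked). Adjustment was by Benjamini-Hochberg over the same rows. The 9 HoxC symbols were read from that fit, 1 row per symbol, the row of highest mean. Entrez identifiers of the 7 genes matched RefSeq (GRCr8). The members and gene lists were chosen with earlier results of these data known. Named genes are the members, other rows of the interval, called Hox genes, paralogs of the called members, called genes of each list by smallest p, and the 5 rows most like Hoxc10. Cdx genes, Hbe1, Hbb, Hoxa13 and Hoxb13 were added, and a result that the rule would name is not reported here. Alternatives were other normalizations, filters, moderation, array weights, a replicate block and leaving out each sample. The fit was tested on simulated data. ERCC subgroups came from general knowledge of the product. Arrays carry no read depth, and their number limits the precision. Whether replicate numbers pair the samples cannot be told from these arrays. Correlations of deviations were -0.11, 0.23 and 0.24 for like numbers and -0.37 to 0.20 for unlike numbers. Tables and figures were made with Python 3.11.15, pandas 2.3.3 and matplotlib 3.10.9.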

Additional observations from a re-analysis of the deposited data

How the results depend on the processing

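Hoxc10 kept its direction under all 17 alternatives and its call under 16. Hoxc5 kept its direction under all 17 and its call under 8. The number of HoxC genes called lower was 1 after median centring, by the authors' deposited table and with all rows tested, and 0 after the shift by spike-ins. Leaving out 1 sample gave 1 to 2 genes lower, none higher, and medians of -0.11 to -0.04. Over all rows it gave 254 to 352 lower and 949 to 1261 higher. The counts over all rows were 785 lower and 823 higher after quantile normalization, 767 and 859 after cyclic loess, and 826 lower with unnamed rows tested. The spike-in shift left 7 lower and 40 higher. The means of the 23 spike-ins of nominal ratio 1 had an SD of 0.083 among retinoic acid pools and 0.27 among controls, which the shift adds to every row. Differences close to 0 changed sign in places. After the spike-in shift Hoxc8 was at 0.022, Mir196a at 0.013, Hoxb13 at 0.025 and Cdx2 at 0.018. With array weights Mir196a was at 0.054. Hbe1 was not close to 0 in the main fit (0.38, called higher), but was at -0.0028 after cyclic loess. With 1 sample left out the ranges were -0.12 to 0.082 for Hoxc8, -0.11 to 0.019 for Hoxc9, -0.11 to 0.12 for Mir196a, -0.15 to 6.1e-06 for Mir615, -0.035 to 0.024 for Hoxb13 and -0.056 to 0.043 for Cdx2. No cause was tested for the other changes. With the replicate number as a block, Hoxc10 (adjusted p = 0.00357) and Hoxc5 (adjusted p = 0.0215) were called, and the block gave 1876 rows higher and 540 lower. Rows at background level, such as Hoxc12, limit what can be read.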

Other observations

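The 5 named rows outside the cluster most like Hoxc10 over the 6 samples, by Pearson's r, were Lmo7 (0.994), Mir99a (0.993), Pgcp (0.989), B3galt5 (0.984) and Sult1c2a (0.979), out of 20249 rows compared. With group means removed the coefficients were 0.985, 0.974, 0.997, 0.945 and 0.935 in the same order. B3galt5 and Sult1c2a had means below the 95th percentile of the olfactory receptor rows in both groups. Neither was called (adjusted p = 0.11 and 0.22). The order of a few rows at such values rests on 6 arrays, and 41 of the 20249 rows had an r above 0.95. The 5 were picked as the highest of 20249 on these same 6 values. Neither set of coefficients is therefore evidence that these rows follow Hoxc10. How many unrelated rows would reach such values was not tested. Mir99a, a microRNA row on chromosome 11, read 6.34, 6.14 and 6.37 log2 units in the retinoic acid pools, against 6.88, 6.73 and 6.58 in the control pools, and fell by 0.45 (SE 0.085, adjusted p = 0.0025).

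A second unnamed row in the HoxC interval lies on the minus strand between the Mir196a and Hoxc9 rows (chromosome 7, 141740679 to 141740954). It read 6.02, 6.16 and 6.19 in the retinoic acid pools, against 6.21, 5.93 and 6.20 in the control pools. The groups overlapped, and the difference was 0.02 ± 0.085 (SE, adjusted p = 0.95 over all rows that are not array controls).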
